A study of Arabidopsis thaliana with 8 samples.

Results

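The FLC clade comprises 6 MADS-box genes of Arabidopsis thaliana: FLC (AT5G10140), MAF1 (AT1G77080, also called FLM), MAF2 (AT5G65050), MAF3 (AT5G65060), MAF4 (AT5G65070) and MAF5 (AT5G65080). Members were found through the sequence accession that the array files give each probe, matched to the RefSeq gene table, which gave 16 probes: 3 for FLC, 4 for MAF1, 4 for MAF2, 2 for MAF3, 1 for MAF4 and 2 for MAF5. Of these, 15 probes passed the filter on dim signals, and all 6 genes were among the 22668 tested. The remaining probe, one of the 4 for MAF1, was above background on 1 of the 8 arrays.

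The RNA came from entire seedlings of ecotype Col-0 at an age of 12 days, with 2 one-colour arrays for each of 4 genotypes: the wild type (WT), the single mutants as1-1 and tfl2-1, and their double mutant as1-1 tfl2-1. Growth was the same for all, on MS medium, at 22 °C, in days of 16 h light and 8 h dark, and no agent is named. as1-1 is a mutant of AS1, which encodes a MYB transcription factor of leaf development, and tfl2-1 is a mutant of TFL2 (also LHP1), which encodes a chromodomain protein that binds Polycomb-marked chromatin. Neither the lesions nor the number of plants per sample is stated in the labels, and they do not say whether the replicates were grown separately. The p-values rest on the spread between samples of a genotype, and that spread may be technical.

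FLC encodes a MADS-box protein that delays flowering by binding and repressing FT, the gene of the leaf-made flowering signal, and SOC1, a gene that integrates flowering signals. It acts in complexes with the related repressor SVP. The MAF genes are its closest relatives and also repress flowering. FLC is activated by the FRIGIDA complex and by chromatin modifiers of active genes, and is silenced by the autonomous pathway and, after winter cold, by Polycomb proteins, among which TFL2 helps to hold the silent state. Col-0 carries a loss-of-function allele of FRI, so FLC is weakly active in it. MAF2, MAF3, MAF4 and MAF5 lie next to each other in that order on chromosome 5.

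TFL2 mRNA differed from wild type by -1.08 (log2) in tfl2-1 and by -0.73 in the double mutant, and AS1 mRNA by -0.49 in as1-1 and 0.02 in the double mutant. Without the lesions these levels do not check the labels. One slide held the wild-type and as1-1 arrays and the other the tfl2-1 and double-mutant arrays. The as1-1 effect, with or without tfl2-1, is thus measured within a slide, whereas the slide and tfl2-1 cannot be told apart in tfl2-1 or the double mutant against wild type, or in the double mutant against as1-1. In seedlings, fewer cells of a type and less RNA per cell cannot be told apart. The share of probes well above background ran from 67.1% to 72.5% over the arrays, and no spot was saturated.

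Values below are scaled signals, the processed spot intensity brought to a common 75th percentile of 1357 on each array. Differences are log2 differences ± the standard error (SE) of a linear model of all 8 arrays, with n = 2 per genotype. A gene is said to have risen or fallen when limma's moderated test gave a Benjamini-Hochberg adjusted p, over all 22668 genes, below the threshold of 0.05. Each gene is represented by its brightest tested probe, and its other probes are given beside it. Levels are compared between genotypes only, never between genes.

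FLC was 1.43-fold to 1.5-fold higher in the mutants than in wild type, with no called difference between the double mutant and either parent. Its scaled signals were 507 and 476 in wild type, 718 and 702 in as1-1, 770.2 and 706 in tfl2-1, and 692 and 712 in the double mutant. All 6 mutant arrays lay above both wild-type arrays, and the 3 mutants overlapped each other. The rise was 0.53 ± 0.061 in as1-1 (1.45-fold, limma adjusted p = 0.00297), 0.59 ± 0.061 in tfl2-1 (1.5-fold, adjusted p = 0.000507) and 0.51 ± 0.061 in the double mutant (1.43-fold, adjusted p = 0.000597). The double mutant differed from as1-1 by -0.02 (95% interval -0.17 to 0.13, adjusted p = 0.821, not past the test) and from tfl2-1 by -0.07 (-0.22 to 0.08, adjusted p = 0.419). These intervals bound the difference and do not show that the levels are equal.

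The FLC rises in the single mutants did not add up in the double mutant. Their sum was 1.12 on the log2 scale, against the measured 0.51. The interaction subtracts the difference between as1-1 and wild type from that between the double mutant and tfl2-1, and it was -0.60 ± 0.087 for FLC (adjusted p = 0.00707). Both of these differences lie within a slide. With scaling on spike-in probes the interaction was -0.54 and did not pass (adjusted p = 0.399). All 3 FLC probes gave the same calls, with differences from 0.53 to 0.61 in as1-1, 0.57 to 0.60 in tfl2-1, 0.51 to 0.58 in the double mutant and -0.65 to -0.55 for the interaction. The 3 probes are annotated to 3 RefSeq transcripts of FLC, and whether they share target sequence was not tested.

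The size of the FLC change has to be read against the whole array, because many genes moved. A difference at least as large as that of FLC was found in 9.12% of genes in as1-1, 21.3% in tfl2-1 and 33.4% in the plants with both mutations. The same share for the interaction was 12.4%.

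**Figure D1:**
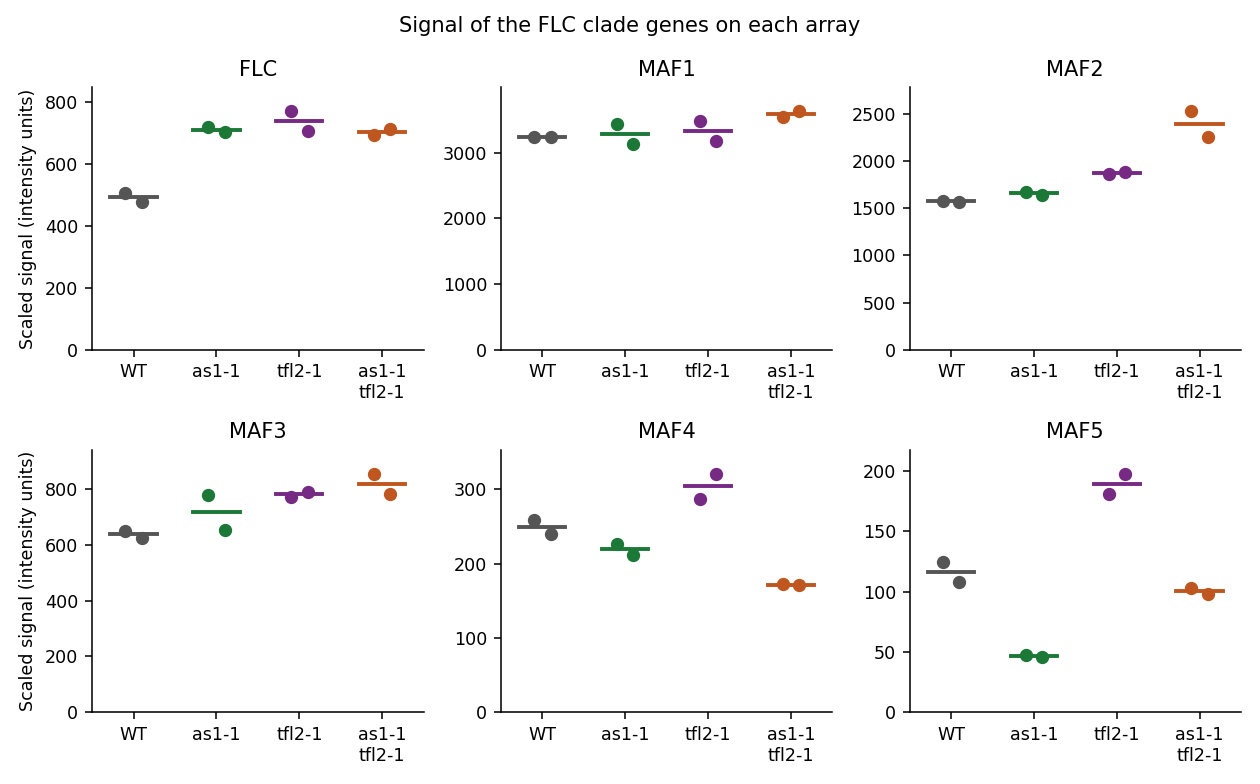
Scaled signal (intensity units, linear axis from 0) of the representative probe of each FLC clade gene on each of the 8 arrays. Points are arrays, horizontal lines are the means of the 2 arrays, and each panel has its own scale. FLC lies between 692 and 770.2 on the mutant arrays and at 507 and 476 in wild type, and MAF5 is lowest in as1-1.

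MAF1 (FLM), a repressor known for its part in the response of flowering to ambient temperature, was the only member with no call on its representative probe. Its signals were 3237 and 3236 in wild type, 3441 and 3132 in as1-1, 3482 and 3174 in tfl2-1, and 3548 and 3630.1 in the double mutant. The as1-1 and tfl2-1 arrays spanned the wild-type values, and both double-mutant arrays lay above all others. The difference from wild type was 0.02 ± 0.068 in as1-1 (95% interval -0.15 to 0.19, adjusted p = 0.863), 0.04 in tfl2-1 (-0.13 to 0.21, adjusted p = 0.66) and 0.15 in the double mutant (-0.02 to 0.32, adjusted p = 0.101). The double-mutant value passed under 4 of 17 other settings (lowest adjusted p = 0.015) and not under the rest. Quantile normalization and the deposited values, which are nearly the same, were both among the 4. A change the size of that of FLC lies outside each of these intervals, which are those of the brightest probe only.

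MAF1 is known to be spliced into several transcripts, and its other probes are annotated to RefSeq transcripts other than that of the brightest. One of them, at 919 to 1056 over the 8 arrays, differed by 0.17 ± 0.055 in the double mutant (adjusted p = 0.0335 over all probes), and by 0.06 and 0.04 in as1-1 and tfl2-1, which did not pass. The third tested MAF1 probe, much dimmer at 29.3 to 45.6, differed by 0.31, 0.31 and 0.26 in as1-1, tfl2-1 and the double mutant, with adjusted p of 0.185, 0.12 and 0.163. Its 95% intervals were -0.04 to 0.67, -0.04 to 0.66 and -0.09 to 0.61, and they include changes the size of those of FLC. Whether any of these probes separates transcript forms was not tested, because the probe sequences are not used here.

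MAF2, a repressor known to keep short cold spells from speeding flowering, was higher in both genotypes with tfl2-1, and highest in the double mutant. Its signals were 1579.9 and 1564 in wild type, 1675 and 1638 in as1-1, 1863 and 1886 in tfl2-1, and 2529 and 2256 in the double mutant. No neighbouring pair in this order overlapped, but the as1-1 difference from wild type, 0.08 ± 0.063, did not pass the test (adjusted p = 0.442). The rise was 0.25 ± 0.063 in tfl2-1 (1.19-fold, adjusted p = 0.0157) and 0.60 in the double mutant (1.52-fold, adjusted p = 0.000331). In tfl2-1 it did not pass when any 1 of the 4 arrays compared was left out (adjusted p from 0.0535 to 0.0689).

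MAF2 was also higher in the double mutant than in either parent, by 0.53 over as1-1 (adjusted p = 0.000636) and by 0.35 over tfl2-1 (1.27-fold, adjusted p = 0.00911). The second of these lies within a slide, and with spike-in scaling it was 0.54 (adjusted p = 0.0655). The interaction for MAF2 was 0.27 ± 0.089 and did not pass (adjusted p = 0.0792); over the 4 probes it ranged from -0.02 to 0.27, lowest for the dimmest probe. All 4 MAF2 probes rose in tfl2-1 (0.25 to 0.49) and in the double mutant (0.56 to 0.62). Over tfl2-1, 3 of the 4 rose in the double mutant, and the dimmest gave 0.08 (adjusted p = 0.576).

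MAF3, a paralogue that can join FLC in repressor complexes, was higher in both genotypes with tfl2-1. Its signals were 649 and 625 in wild type, 777 and 654 in as1-1, 772 and 790.0 in tfl2-1, and 854 and 779.9 in the double mutant. The as1-1 arrays differed from each other more than those of any other genotype, and both lay above wild type. MAF3 rose by 0.29 ± 0.092 in tfl2-1 (1.23-fold, adjusted p = 0.0362) and by 0.36 in the double mutant (1.28-fold, adjusted p = 0.0151), and its as1-1 difference was 0.16 (adjusted p = 0.267).

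The MAF3 call in tfl2-1 had the highest adjusted p of the 5 calls there. It did not pass when any 1 of the 4 arrays compared was left out (adjusted p from 0.0851 to 0.13), and that in the double mutant did not pass without wild-type replicate 2 (0.0661) or double-mutant replicate 1 (0.0786). The other MAF3 probe gave 0.45 and 0.51 in these comparisons (adjusted p = 0.0211 and 0.0109 over all probes) and 0.02 in as1-1. It also rose in the double mutant over as1-1, by 0.49 (adjusted p = 0.0134), where the representative probe gave 0.20 (adjusted p = 0.112).

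MAF4, also a repressor of the clade, moved in opposite directions with tfl2-1 alone and with both mutations. Its signals were 259 and 239.9 in wild type, 226 and 212 in as1-1, 287 and 321 in tfl2-1, and 172 and 171 in the double mutant. No genotypes overlapped, with the double mutant lowest and tfl2-1 highest. MAF4 rose by 0.28 ± 0.074 in tfl2-1 (1.22-fold, adjusted p = 0.0191). This rise did not pass with spike-in scaling, or with only the arrays of the genotypes compared. MAF4 fell by 0.54 in the double mutant against wild type (1.45-fold lower, adjusted p = 0.00108). With spike-in scaling that difference was -0.24 and did not pass (adjusted p = 0.335). In as1-1 its difference was -0.19 (adjusted p = 0.136).

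MAF4 was 1.77-fold lower in the double mutant than in tfl2-1, a log2 difference of -0.82 (adjusted p = 0.000827), and 5.8% of genes differed at least that much in that comparison. The double mutant was also below as1-1, at -0.35 (adjusted p = 0.00689; -0.18 and 0.496 with spike-in scaling). The interaction was -0.64 ± 0.105 (adjusted p = 0.0108; 0.34 with spike-in scaling), so the as1-1 effect on MAF4 was more negative in tfl2-1 plants. MAF4 has a single probe, so no other probe bears on it. Its call in tfl2-1 did not pass without wild-type replicate 2 or without tfl2-1 replicate 2 (adjusted p = 0.0882 and 0.0903).

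By the representative probes, MAF5 had the largest difference of the 6 genes in as1-1 and in tfl2-1; its other probe gave -0.60 and 0.58, beside up to 0.61 and 0.60 for the FLC probes. MAF5 is the last gene of the chromosome 5 cluster and, unlike FLC, is known to rise after cold. Its signals were 125 and 108 in wild type, 47.1 and 46.2 in as1-1, 181 and 198 in tfl2-1, and 103 and 98.2 in the double mutant. No genotypes overlapped: as1-1 was lowest, then the double mutant, wild type and tfl2-1. MAF5 fell by 1.31 ± 0.085 in as1-1 (2.49-fold lower, adjusted p = 0.000364), and 1.87% of genes differed at least that much. In tfl2-1 it rose by 0.70 (1.63-fold, adjusted p = 0.000911).

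In the double mutant MAF5 stood near wild type, at -0.21 (95% interval -0.41 to 0.00, adjusted p = 0.0768). It was called lower under 4 of 17 other settings (lowest -0.31, lowest adjusted p = 0.0206), and was 0.09 and not called with spike-in scaling. It was 2.16-fold higher there than in as1-1 (1.11 on the log2 scale, adjusted p = 0.000103) and 1.88-fold lower than in tfl2-1 (-0.91, adjusted p = 0.000947). The as1-1 effect on MAF5 was thus negative with and without tfl2-1, and the test of the difference between them gave 0.40 ± 0.121 (adjusted p = 0.0647).

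The other MAF5 probe, annotated to the same transcript, gave the same directions in both single mutants but smaller values. It read 93.9 and 96.1 in wild type, 65.4 and 60.5 in as1-1, 139 and 146 in tfl2-1, and 100.2 and 97.3 in the double mutant. Its differences from wild type were -0.60, 0.58 and 0.06, the first and second past the test over all probes (adjusted p = 0.00185 and 0.000456). The fall in as1-1 is thus 2.49-fold by one probe and 1.51-fold by the other. For the double mutant it gave 0.65 over as1-1 (1.57-fold) and -0.53 against tfl2-1 (1.44-fold lower), both past the test (adjusted p = 0.00021 and 0.00193). Its interaction was 0.07 (adjusted p = 0.607), against 0.40 for the brighter probe. Normexp background correction gave -0.86 for the brighter probe in as1-1 in place of -1.31, and 0.66 for the double mutant over as1-1 in place of 1.11.

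**Figure D2:**
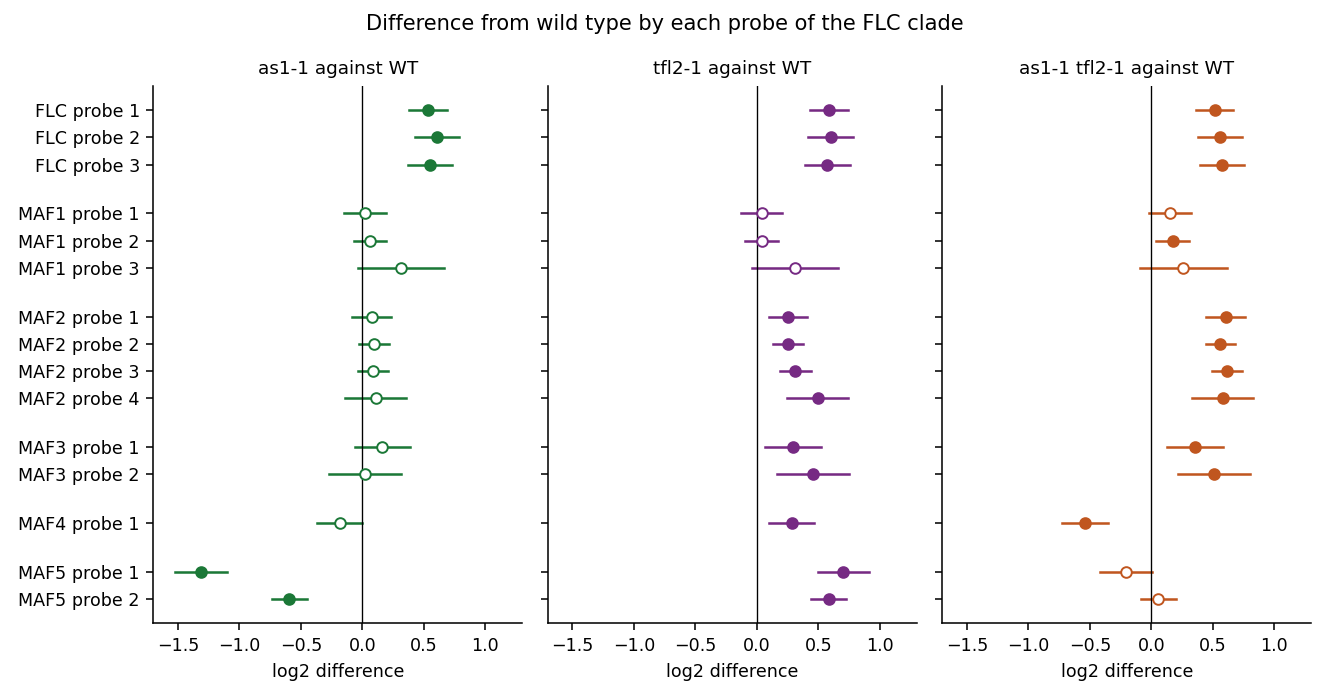
Log2 difference from wild type (horizontal axis) of each of the 15 tested FLC clade probes in as1-1, tfl2-1 and the double mutant, with 95% intervals; filled points passed limma's test over all probes at 0.05. The 3 FLC probes lie to the right of 0 in every panel, and the MAF5 probes lie at -1.31 and -0.60 in as1-1.

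Counted over the clade, the calls are to be set against the share of all genes called. In as1-1, where 19.2% of genes were called (7.09% higher, 12.1% lower), 1 of 6 members rose (FLC) and 1 fell (MAF5). In tfl2-1, where 54.7% were called (26.2% higher, 28.4% lower), 5 of 6 rose and MAF1 alone was not called. In the double mutant, where 63.7% were called (30.8% higher, 32.9% lower), FLC, MAF2 and MAF3 rose, MAF4 fell, and MAF1 and MAF5 were not called. These 3 comparisons share the wild-type arrays.

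Against as1-1, where 61.5% of genes were called (32.5% higher, 29% lower), MAF2 and MAF5 rose in the double mutant and MAF4 fell. Against tfl2-1, where 31.5% were called (13.5% higher, 18% lower), MAF2 rose and MAF4 and MAF5 fell. For the interaction, with 20.3% called (10.6% higher, 9.67% lower), FLC and MAF4 were lower and no member was higher by limma, although MAF2 and MAF5 were higher at an unadjusted p under 0.05 (0.0212 and 0.0152) by their representative probes.

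The 15 probes were also counted, over all 30467 probes tested. They include calls that the representative probes did not give, for MAF1 in the double mutant and for MAF3 in the double mutant over as1-1. In as1-1, 3 rose (7.62% of all probes) and 2 fell (9.8%), with 17.4% of all probes called. In tfl2-1, 12 rose (26.4%) and none fell (25.6%), with 52% called, and all 15 differences were above 0. In the double mutant 10 rose (31.4%) and 1 fell (30.5%), with 61.9% called. Against as1-1, 7 rose in the double mutant (30.7%) and 1 fell (27.5%), with 58.2% called, and against tfl2-1 3 rose (11.6%) and 3 fell (16.1%), with 27.8% called. For the interaction 4 were lower (9.25%), 3 of FLC and 1 of MAF4, and none higher (8.55%), with 17.8% called.

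Scaling on the 8 spike-in probes of the arrays in place of the 75th percentile, an alternative chosen after seeing the data, adds a constant to every difference of a comparison. It is set for each array, so it also alters the spread between arrays of a genotype, and thus the p-values. It moved the median of all genes from -0.04 to 0.09 in as1-1, from -0.01 to 0.10 in tfl2-1 and from -0.01 to 0.29 in the double mutant. Relative to that median the members keep the same differences. FLC rose in all 3 mutants under it and MAF5 fell in as1-1, while MAF2, MAF3 and MAF4 did not pass in tfl2-1.

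The median log2 difference of the 6 members was 0.05 for as1-1, 0.29 for tfl2-1 and 0.25 for the double mutant, each against wild type, beside -0.04, -0.01 and -0.01 over all genes tested. The arrays of the genotypes compared did not overlap for 5, 5 and 6 of the 6 members, and for 62.9%, 78.4% and 82.6% of all genes. With arrays in pairs, non-overlap was thus common on the array as a whole.

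Along the chromosome 5 cluster, the as1-1 effect went from positive values at MAF2 and MAF3 to negative ones at MAF4 and MAF5. In order from MAF2 to MAF5, the difference between as1-1 and wild type was 0.08, 0.16, -0.19 and -1.31 without tfl2-1, where the MAF5 value alone passed. In tfl2-1 plants it was 0.35, 0.06, -0.82 and -0.91, where all but the MAF3 value passed. The tfl2-1 effect was positive at all 4 genes, at 0.25, 0.29, 0.28 and 0.70. MAF2 to MAF5 are similar in sequence, and cross-hybridisation between their probes was not tested.

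The genes beside the cluster moved as well. AT5G65040, annotated in RefSeq with the synonym Increased Resistance to Myzus persicae 1, lies before MAF2. It rose by 0.69 in tfl2-1 (adjusted p = 0.00106) and by 1.82 in the double mutant (adjusted p = 1.56e-05), and the difference made by as1-1 was 1.12 in tfl2-1 plants and 0.09 without tfl2-1, with an interaction of 1.03 (adjusted p = 0.00373). AT5G65030, the next tested gene outward, fell in as1-1 (-0.41) and tfl2-1 (-0.66) but rose by 0.20 in the double mutant (adjusted p = 0.0446). ANNAT2, an annexin gene, was called in none of these comparisons.

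On the MAF5 side, the nearest tested gene was ACX2, which encodes an acyl-CoA oxidase of fatty acid breakdown. Its as1-1 effect was -0.58 in tfl2-1 plants (adjusted p = 0.00588) and -0.01 without tfl2-1 (adjusted p = 0.945), with an interaction of -0.56 (adjusted p = 0.0302). AT5G65120 fell by 0.39 in tfl2-1 and by 0.35 in the double mutant. AT5G65130 was not called, with wide errors (2.13 ± 0.745 in tfl2-1, adjusted p = 0.0517). With spike-in scaling the as1-1 fall of AT5G65030 and the calls of ACX2 and AT5G65120 given here did not pass. Other calls appeared: of the 6 tested neighbours, 1 then rose in as1-1, and 2 rose and 1 fell in tfl2-1. For the double mutant against tfl2-1, and for the interaction, 2 were then higher and 1 lower.

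FLC lies elsewhere on chromosome 5. AT5G10150, the next gene after FLC, differed by -0.02 in as1-1 (adjusted p = 0.776), rose by 0.40 in tfl2-1 (adjusted p = 0.000903) and differed by 0.12 in the double mutant (adjusted p = 0.0684). Its interaction was -0.26 (adjusted p = 0.0474), against -0.60 for FLC, and the difference between the genes was not tested; with spike-in scaling neither interaction passed. Of the 5 other tested neighbours of FLC, AT5G10160 (-0.16) and MIPS3, a gene of inositol synthesis (-0.37), fell in tfl2-1, and the other 3 were not called there. TPPI, which encodes a trehalose-6-phosphate phosphatase, rose by 2.68 in as1-1 and by 2.41 in the double mutant. In the double mutant AT5G10110 rose by 0.21 and AT5G10160 fell by 0.43. The falls of AT5G10160 and MIPS3 did not pass with spike-in scaling.

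Of the 6 tested neighbours of MAF1 on chromosome 1, 2 rose and 3 fell in tfl2-1, beside the 0.04 of MAF1 itself. AT1G77020 rose by 0.49 and ADH1, an alcohol dehydrogenase gene, by 0.48, while AT1G77090 fell by 0.77, PIN6, an auxin transporter gene, by 0.33 and AT1G77060 by 0.24. In the double mutant ADH1 (0.51) and PIN6 (0.33) rose and AT1G77090 (-0.96) and AT1G77060 (-0.65) fell, and in as1-1 ADH1 fell by 0.29. With spike-in scaling none was called in as1-1, and 2 rose and 1 fell in each of the other genotypes.

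**Figure D3:**
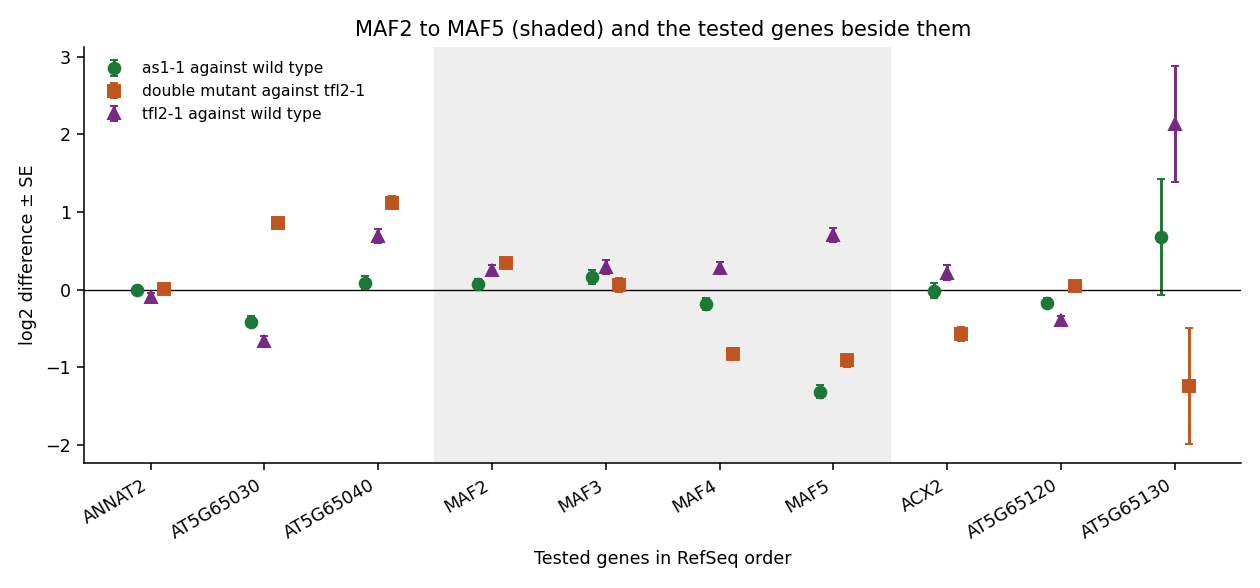
Log2 difference ± SE of MAF2 to MAF5 (shaded) and the 3 nearest tested genes on each side, in RefSeq order; the horizontal axis is gene order, not distance. The as1-1 effect without tfl2-1 is shown by circles, in tfl2-1 plants by squares, and the tfl2-1 effect by triangles. MAF5 lies at -1.31 and -0.91 for the as1-1 effects and at 0.70 for tfl2-1.

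The repressor's partner and targets were followed beside the clade. SVP, the MADS-box partner of FLC and MAF1, fell in all 3 mutants. Its signals were 8012 and 8242 in wild type, 6601 and 7136 in as1-1, 3656 and 3763 in tfl2-1, and 4151 and 3963 in the double mutant. All mutant arrays lay below wild type. SVP fell by 0.24 on the log2 scale in as1-1 (adjusted p = 0.0335), where the call did not pass with spike-in scaling, by 1.13 in tfl2-1 and by 1.00 in the double mutant. Its interaction was 0.37 (adjusted p = 0.0257), which did not pass with spike-in scaling (0.43).

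FT, which FLC and SVP are known to repress, fell in as1-1 and rose in both genotypes with tfl2-1. Its signals were 154 and 151 in wild type, 58.7 and 56.3 in as1-1, 2126 and 2378 in tfl2-1, and 756 and 703 in the double mutant. FT fell by 1.41 in as1-1 (adjusted p = 0.000144) and rose by 3.88 in tfl2-1 and 2.26 in the double mutant. The double mutant lay below tfl2-1, at -1.62 (adjusted p = 9.64e-05). The interaction for FT was -0.22 (adjusted p = 0.178).

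SOC1, the other classic target, moved in the same directions. Its signals were 4226 and 3954 in wild type, 3370 and 3326 in as1-1, 6165 and 5982 in tfl2-1, and 4570.1 and 4909 in the double mutant. SOC1 fell by 0.29 in as1-1 (adjusted p = 0.021), rose by 0.57 in tfl2-1 (adjusted p = 0.000452) and by 0.21 in the double mutant (adjusted p = 0.0192), and was 0.36 lower in the double mutant than in tfl2-1. With spike-in scaling the as1-1 difference was -0.16 and that against tfl2-1 -0.17, and neither passed. FLC was thus higher than wild type both where FT was lower (as1-1) and where FT and SOC1 were higher (tfl2-1 and the double mutant).

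TEM1, a further repressor of FT, rose by 0.38 in as1-1 (adjusted p = 0.00305) and by 0.22 in tfl2-1 (adjusted p = 0.0067), and differed by 0.06 in the double mutant. Its interaction was -0.54 (adjusted p = 0.00337). With spike-in scaling the TEM1 differences in as1-1 and tfl2-1 (0.51 and 0.33) and its interaction (-0.48) did not pass. Of the 6 tested genes of this list, 1 rose and 3 fell in as1-1, and 3 rose and 1 fell in each of the other mutants, where 19.2%, 54.7% and 63.7% of all genes were called in as1-1, tfl2-1 and the double mutant. With spike-in scaling 1 fell and none rose in as1-1, and 4 rose and 1 fell in each of the others. The shares of all genes called were then 7.56%, 26.2% and 46.6%. TSF, the closest relative of FT, was listed but not tested.

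The regulators upstream of FLC are set against the same shares of all genes called. Of 17 activators, 1 fell in as1-1, 2 rose and 1 fell in tfl2-1, and 5 rose and 4 fell in the double mutant. With spike-in scaling none was called in as1-1, 1 rose in tfl2-1 and 6 rose in the double mutant, and none fell. FRI, the scaffold of the FRIGIDA complex, fell by 0.37 in as1-1 (adjusted p = 0.0204), with signals of 256 and 233 in wild type against 189 and 187, and did not pass with spike-in scaling (-0.25). SWC6, a subunit of the SWR1 complex that deposits the histone variant H2A.Z, rose by 0.56 in tfl2-1 (adjusted p = 0.00067) and 0.78 in the double mutant (adjusted p = 0.000116). SDG8, a histone H3 methyltransferase that keeps FLC active, fell by 0.39 and 0.29 in these genotypes, and HUB1, a histone H2B ubiquitin ligase, rose by 0.28 and 0.46.

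Of the 7 autonomous pathway genes, which hold FLC down, none was called by limma in as1-1 (1 at an unadjusted p under 0.05). FCA, an RNA-binding protein of that pathway, rose by 0.52 in tfl2-1 (adjusted p = 0.00788) and by 0.67 in the double mutant (adjusted p = 0.00224). FLK, also an RNA-binding protein, rose by 0.26 and 0.24, and FVE fell by 0.17 in tfl2-1. Of 9 vernalization and Polycomb genes, none was called in as1-1 (1 at an unadjusted p under 0.05), 2 fell in tfl2-1, and 2 rose and 2 fell in the double mutant. FIE, a core Polycomb subunit, fell by 0.29 in both, and VRN5, which helps Polycomb silence FLC after cold, fell by 0.28 and 0.25. With spike-in scaling SDG8, FIE and VRN5 were called neither in tfl2-1 (-0.28, -0.18 and -0.16) nor in the double mutant (0.01, 0.01 and 0.05), and the tfl2-1 calls of HUB1, FLK and FVE did not pass. By list, 1 autonomous gene rose in tfl2-1 and 3 in the double mutant with that scaling. Of the vernalization and Polycomb genes 1 and 3 rose, and 1 was lower in as1-1. These counts include VIN3, the only gene of that list not well above background on every array. VIN3 was well above it on only 3 arrays. It read 8.77 and 4.11 in wild type, 3.64 and 2.28 in as1-1, and 35.6 and 5.52 in tfl2-1. The call in as1-1 may thus be that of a gene too dim to compare there.

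**Figure D4:**
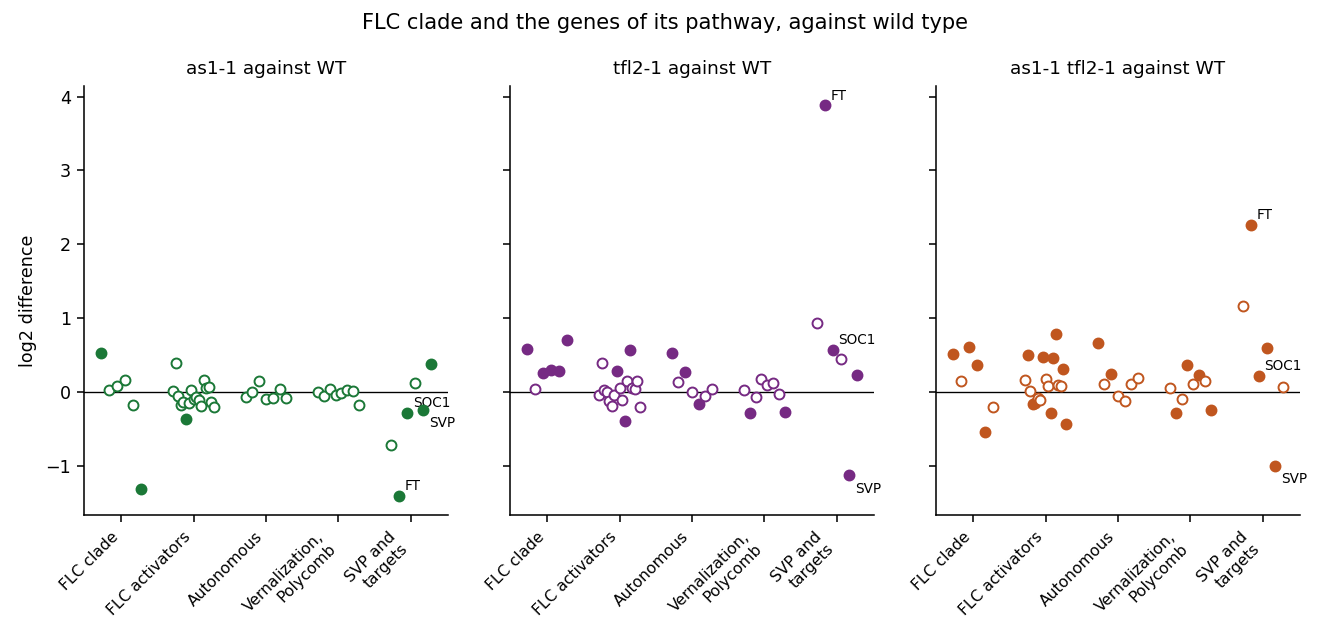
Log2 difference from wild type of the 6 FLC clade genes and of the tested genes of 4 pathway lists (VIN3, dim in wild type, is not drawn), for as1-1, tfl2-1 and the double mutant; each point is 1 gene, filled where limma's test over all genes passed at 0.05. FT lies at -1.41, 3.88 and 2.26, and SVP is below 0 in all panels.

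Markers of organs moved with tfl2-1 in the same seedlings. Of 15 photosynthesis genes of leaves, 13 fell in tfl2-1 (list median -0.39) and 15 in the double mutant (-0.69), and 1 fell in as1-1 (-0.10). With quantile normalization 6 fell in tfl2-1 and 7 in the double mutant (medians -0.10 and -0.16), 1 rose in the double mutant, and none was called in as1-1; with spike-in scaling 2 fell in tfl2-1, 6 in the double mutant and none in as1-1. Their summed signal ranged from 4.04e+06 to 4.25e+06 in wild type, 3.82e+06 to 3.90e+06 in as1-1, 3.13e+06 to 3.40e+06 in tfl2-1 and 2.68e+06 to 2.89e+06 in the double mutant.

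The 9 flower genes all rose with tfl2-1, in the single and the double mutant, and 3 of 9 rose in as1-1. With normexp background correction all 9 again rose in tfl2-1 and the double mutant, but in as1-1 3 rose and 2 fell. The summed signal of the 9 genes was 489 to 493 in wild type, 1044 to 1079 in as1-1, 33888 to 35751 in tfl2-1 and 28876 to 30365 in the double mutant. LFY, AP3, AG and SEP2 were below background in wild type and as1-1. The brightest genes weigh most in these sums. PI read 224 and 205 in wild type and 679 and 687 in as1-1. SEP3 read 22313 and 24046 in tfl2-1 and 16304 and 15090 in the double mutant. Against tfl2-1, 3 of the 9 were called higher in the double mutant and 1 lower, so the lower sum does not describe the list. Of 8 root genes 4 were tested, and their summed signal was 130 to 168 in wild type, 156 to 169 in as1-1, 54.2 to 90.4 in tfl2-1 and 81.0 to 111 in the double mutant. These sums include genes below background: COBL9 in wild type, WOX5 and NRT2.1 in tfl2-1, and both WOX5 and COBL9 in the double mutant. WOX5 and COBL9 were well above background on only 3 arrays each, and NRT2.1 on 4. Against wild type, tfl2-1 had 3 of the 4 called lower, and each of the other mutants had 1. The root median in tfl2-1 was -1.42, and -0.49 with normexp, where 2 fell in the double mutant. With spike-in scaling 1 root gene rose and 1 fell in as1-1. The part of these organ markers in the FLC clade differences was not tested.

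The genes whose pattern over the 8 arrays was closest to that of each member were found by the root mean square (RMS) difference of centred log2 values, among 17787 genes above background on every array. The closest to FLC were HSFA3, a heat stress transcription factor (RMS 0.0646), AT4G33420 (0.0711) and AT3G61210 (0.0753). The closest to MAF2 was AT1G77480 (0.037), and the closest to MAF4 was AT1G34580 (0.0543). For MAF5 the closest were farther off: TSA1 (0.129), HMT3 (0.136) and RD20 (0.144).

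Among the members themselves, MAF1 and MAF3 were the closest pair (RMS 0.117), followed by MAF2 and MAF3 (0.14). FLC and MAF5 were the farthest apart (0.785). The distance reflects the size of the changes as well as their shape, so MAF1, which varied little, lies near any gene that varied little.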

How the data were processed

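One-colour Agilent arrays of 8 seedling RNA samples were deposited as scanner files. The deposited values used are spot intensities after background subtraction and detrending, per the file headers; the submitters' processing notes name Agilent Feature Extraction 10.7. The authors also deposited a set of values per probe, on a log2 scale by its fit to the scanner values, whose normalization is not given in the sources used here. Its column medians were all near 7.68, and it served only as an alternative. With it 4091, 12137 and 14349 genes were called in as1-1, tfl2-1 and the double mutant. Quantile normalization gave 4090, 12137 and 14356, so these alternatives are nearly the same.

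Here control spots and 67 outlier spots were left out, spots of a probe averaged, and log2 signals set to 0 at each array's 75th percentile. Probes were kept if well above background on both arrays of at least 1 genotype (30467 of 43603). Names came from RefSeq (TAIR10.1) through the probes' accessions, with 34285 probes matched; the files name another build, so no coordinates are given. The brightest kept probe represented a gene. All arrays entered 1 model (limma 3.58.1, R 4.3.3, data.table version 1.17.8; 4 residual and 2.06 prior degrees of freedom), two-sided, with Benjamini-Hochberg adjustment; the script was tested on simulated data. The number of arrays limits the precision.

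Members, pathway lists and the rule for named genes were chosen with earlier results of these data known. The rule names all members; up to 4 genes of each list with the largest called differences, plus SVP, FT, SOC1, AS1 and TFL2; the 3 nearest tested genes on each side; and the 3 genes most alike in pattern. Replicate numbers did not pair samples: deviations of same-numbered arrays correlated between -0.05 and 0.05 across genotypes. Alternatives covered background correction, normalization, the deposited values per probe, dim-probe filters, the probe of a gene, the arrays in the fit, slide and replicate blocks, and leaving out each array; spike-in scaling was added after seeing the data.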

Additional observations from a re-analysis of the deposited data

Results flagged for a closer look

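The effect of as1-1 differed between tfl2-1 plants and plants without tfl2-1, by limma's test of the interaction, for 15 of 39 genes: the members, the named pathway and mutated genes and the nearest tested neighbours. Most named pathway genes were chosen for large called differences, so this count is not comparable with the share of all genes. In all, 20.3% of genes passed the interaction test. With spike-in scaling 6.9% of all genes and 3 of the 15 passed it. FLC was 0.53 higher in as1-1 than in wild type but differed by -0.07 between the double mutant and tfl2-1, an interaction of -0.60 (adjusted p = 0.00707). MAF4 differed by -0.19 and -0.82 in the same comparisons, an interaction of -0.64 (adjusted p = 0.0108). SVP differed by -0.24 and 0.13, an interaction of 0.37 (adjusted p = 0.0257). For the mutated genes the interaction was 0.83 (AS1) and 0.43 (TFL2), and for the pathway genes TEM1 and FRI it was -0.54 and 0.48. Beside the MAF cluster it was 1.27 for AT5G65030, 1.03 for AT5G65040 and -0.56 for ACX2. Beside FLC it was -0.26 for AT5G10150. Beside MAF1 it was -0.72 for AT1G77020, -0.38 for AT1G77060, 0.56 for PIN6 and 0.32 for ADH1.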

How the results depend on the processing

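Over 624 alternative values of the member differences, 585 stayed on their side of the threshold (9 of them with the opposite sign and not called either way), 23 no longer passed, 16 newly passed, and 0 changed sign with a call. These values are not independent checks. Slide as a block could not change a within-slide value. Leaving out an array outside a comparison kept the difference and changed only its p. Quantile normalization and the deposited values were nearly the same. The FLC rises against wild type and the 4 MAF5 calls held in every alternative run (MAF5 in as1-1 from -1.42 to -0.86). The MAF2, MAF3 and MAF4 rises in tfl2-1 failed in 5, 6 and 5 of 17 alternatives, with adjusted p up to 0.189, 0.138 and 0.151. The number of members called in tfl2-1 (5) was 3 with no filter on dim probes, where more genes were tested, and 2 to 5 leaving out 1 array. In the double mutant against as1-1 it was 5 in place of 3 with normexp; the cause was not tested. Leaving out 1 array gave 8 to 13 probes called in tfl2-1 (12 with all arrays), and ranges of 2 to 3 members and 3 to 5 probes for the interaction. Scaling on 8 spike-in probes moved the median of all genes from -0.01 to 0.29 in the double mutant and the share of calls that were higher from 36.9% to 63% (as1-1), 48% to 61.5% (tfl2-1), 48.4% to 75.8% (double mutant), 52.9% to 68% (against as1-1) and 42.8% to 69.1% (against tfl2-1). With it 2 members and 7 probes were called in tfl2-1, 2 probes (in place of 6) in the double mutant against tfl2-1, and 0 members and 0 probes by limma for the interaction (1 and 1 at an unadjusted p under 0.05), where FLC and MAF4 had adjusted p of 0.399 and 0.34. With that scaling the share of all genes called also fell, from 54.7% to 26.2% in tfl2-1. It fell from 31.5% to 12% in the double mutant against tfl2-1, and from 20.3% to 6.9% for the interaction. MAF4 in the double mutant was then -0.24 (adjusted p = 0.335) against wild type and -0.18 (0.496) against as1-1, and MAF2 0.54 (0.0655) against tfl2-1. The replicate block left the members called at 2, 5, 4, 3, 3 and 2 over the 6 comparisons, as without it, and the replicate numbers do not pair the samples. Slide as a block left the within-slide counts at 2, 3 and 2. It could not change them, because each slide held all arrays of its genotypes.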
